A study of Drosophila melanogaster with 14 samples.

Results

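RNA polymerase II (Pol II) occupancy was compared, gene by gene, between the progenitors and the enterocytes (ECs) of the adult midgut of Drosophila melanogaster. The gene table of Release 6 lists 17872 genes, of which 17802 overlapped at least 1 measured fragment and 14803 overlapped at least 3 and were compared. The measure of each gene was its mean occupancy in progenitors minus its mean occupancy in ECs. By rules of size given below, 453 of the 14803 genes were biased to progenitors, 417 were biased to ECs, and 641 were occupied at a high and nearly equal level in both.

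Targeted DamID was used, in which the bacterial methylase Dam, fused to Pol II or on its own, is made at a low level in the cells of a chosen GAL4 driver and methylates GATC sites near the DNA it contacts. The esg driver marks intestinal stem cells (ISCs) and enteroblasts (EBs) together, so each progenitor value is that of an ISC/EB mixture, and the myo driver (Myo1A) marks ECs. Dam-Pol II and Dam alone each had 2 samples per population, which makes 8 of the 14 samples of the series; all were DNA from dissected midguts of adult flies, and the remaining 6 samples, with 3 of Dam-Sox21a and 3 of Dam in ISC/EBs, supplied the Sox21a values used below. No other allele, and no sex, age in days or treatment, is given for these groups in the sources used here.

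The midgut epithelium is renewed by ISCs, which divide to give another ISC and an EB or an enteroendocrine cell (EE) precursor. EBs receive Notch signals, leave the cycle and mature into ECs, the large absorptive cells that secrete digestive enzymes and take up nutrients. Pol II travels along the whole of a gene it transcribes, so Dam-Pol II leaves methylation over the length of active genes, whereas Dam alone marks DNA that is open.

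The authors deposited a single track per population, already averaged over samples, that gives Dam-Pol II over Dam as a log2 ratio for each of 383654 GATC fragments (median length 197 bp). A gene mean was the mean of its fragments weighted by their length inside the gene, so that genes of different length are on a per-base scale, and a difference of 1 on the log2 scale is a 2-fold difference. Because the samples were averaged, their spread could not be computed, no test between populations was possible, and every difference below is a description of the 2 tracks. The number of reads behind a fragment was not determined, and 13% of fragments stood at exactly 0 in both tracks. More cells with Pol II on a gene and more Pol II per cell cannot be told apart in such tracks. Fragments are read without strand, and genes that overlap share fragments. Of the genes biased to progenitors 53.2% overlapped another gene, beside 48.4% of all genes compared, and not every overlap is named below.

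The 2 tracks had unequal spread. Over all fragments, the SD was 0.856 in ISC/EBs and 0.652 in ECs on the deposited log2 scale, and the 95th percentile of fragments was 2.45 in ISC/EBs against 1.76. The median gene difference, ISC/EB minus EC, was 0.19 as deposited, and 65.5% of the 14803 genes were higher in ISC/EBs. The median difference grew with the level of the gene, from -0.03 in 5090 genes whose mean of both populations was under 0 to 0.68 in 224 genes whose mean was 2.5 or more. After quantile normalization, which gives both tracks the same distribution, these medians were -0.04 and 0.04, the median over all genes was -0.00, and 49.4% of genes were higher in ISC/EBs. A total of 2393 genes were higher in ISC/EBs as deposited and higher in ECs after normalization, against 3 genes that changed the other way. A deposited difference therefore includes a shift that depends on the level of the gene. Genes in a biased class met their threshold on both scales, and other deposited means are levels from which no direction is read unless the difference on both scales is given.

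A gene was called ISC/EB-biased when its ISC/EB mean was at least 1 and its difference was at least 1 on both scales, and EC-biased by the mirror rule. It was called equally occupied when both deposited means were at least 1 and the difference was at most 0.5 in size on both scales. Past these thresholds lay 453 ISC/EB-biased genes (3.06% of genes compared), 417 EC-biased genes (2.82%) and 641 equally occupied genes (4.33%). The balance of the biased genes depended on the scale. On the deposited scale alone, 1256 genes were ISC/EB-biased and 417 EC-biased, and on the normalized scale alone, 453 were ISC/EB-biased and 702 EC-biased. In all, 2320 genes had a deposited mean of at least 1 in both populations, 2180 in ISC/EBs only, 615 in ECs only and 9688 in neither. At the edge of the ISC/EB-biased class, cib was inside with a normalized difference of 1.0 and cv just outside with 0.999. At the edge of the EC-biased class, HP1D3csd was inside and Tim13 just outside, both with a deposited difference of -1.0.

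**Figure D1:**
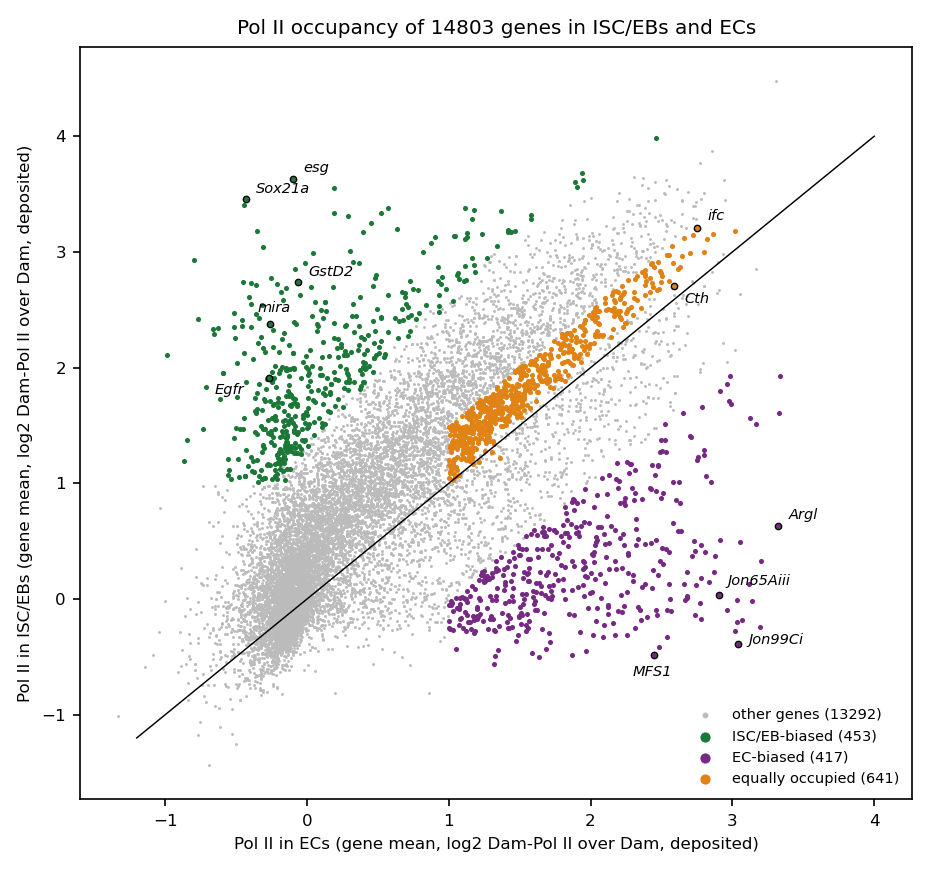
Mean Pol II occupancy of each of 14803 genes in ECs (horizontal axis) and ISC/EBs (vertical axis), as the deposited log2 ratio (Dam-Pol II over Dam), with the diagonal drawn and named genes circled. The 453 ISC/EB-biased genes (green) and the 417 EC-biased genes (purple) lie in separate corners, and the cloud of highly occupied genes, with the 641 equally occupied ones (orange), lies above the diagonal.

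The labelled cell types were checked against marker genes. The 6 ISC/EB markers used here (esg, Delta, N, E(spl)mbeta-HLH, mira and sc) had means between 1.24 and 3.63 in ISC/EBs and between -0.26 and -0.10 in ECs on the deposited scale. They were chosen with earlier results of these data known. In a longer list of 16 known ISC/EB markers, 9 were ISC/EB-biased. Of 9 EC markers, 8 had a mean of at least 1 in ECs, and the exception was nub, a POU factor gene used as an EC marker, at 0.63 in ECs and 0.24 in ISC/EBs. Myo31DF, the brush border myosin gene behind the name of the EC driver, was equally occupied, at 1.47 in ISC/EBs and 1.29 in ECs. None of 7 EE markers and none of 3 germline markers reached 1 in either population. The highest EE marker was Dh31, a peptide hormone gene, at 0.58 in ECs, and it overlaps Bace, which stood at 2.68 there. Of 6 visceral muscle markers, only the tropomyosin gene Tm1 reached 1, with 1.35 in ISC/EBs and 0.60 in ECs. Of 6 hemocyte markers, the scavenger receptor gene crq (2.58 in ISC/EBs and 1.25 in ECs) and srp, a GATA factor gene (1.01 and 0.80) reached 1, while the defining markers Hml, NimC1 and eater lay between -0.28 and -0.02 in both. The part of other cells in the differences was not tested beyond these levels.

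The 20 genes with the largest ISC/EB excess, ranked on the normalized scale among biased genes with at least 5 fragments, lay between 2.25 and 3.63 in ISC/EBs and between -0.77 and 0.52 in ECs as deposited. Of their 266 fragments, counted per gene, 264 were higher in ISC/EBs, and in 18 of the 20 genes every fragment was. The ranking used the mean of these same fragments, so such agreement was favored by the rule and is no separate evidence. The size of the excess varied along some genes. In mira the difference within a fragment ran from 0.015 to 4.14, with a median of 1.17. Sox21a, which encodes an HMG-box transcription factor of progenitors, had 13 fragments between 2.99 and 3.70 in ISC/EBs and between -0.67 and -0.12 in ECs, so the 2 populations did not overlap in any fragment. Its difference was 3.89 as deposited and 3.58 after normalization. The 11 fragments of esg, whose Snail-family repressor keeps progenitors undifferentiated, lay between 2.33 and 4.26 in ISC/EBs and between -0.64 and 1.06 in ECs.

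pain, a TRP channel gene, stood at 2.61 in ISC/EBs and -0.41 in ECs, with 30 of 31 fragments higher in ISC/EBs. Ilp6, an insulin-like peptide gene, stood at 2.41 and -0.46. It lies inside Raf, whose own means were 1.15 and 0.10. E(spl)mbeta-HLH, a bHLH repressor gene that Notch switches on, stood at 2.69 and -0.15. Dtg, known as a target gene of the BMP ligand Dpp in the embryo, stood at 2.35 and -0.52, and Mes2, which encodes a MADF-domain protein, at 2.43 and -0.34. GstD2, a glutathione transferase gene, stood at 2.74 and -0.06. mira, whose product carries fate determinants in dividing neuroblasts, stood at 2.38 and -0.26, and it lies inside Hs6st, which had means of only 0.42 and -0.05.

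Some of these 20 genes share their fragments with a larger or opposite gene, and their values cannot be assigned to 1 of the partners. CG30283 (2.73 in ISC/EBs and -0.21 in ECs) lies inside Egfr. lncRNA:CR44611 (2.42 and -0.77) lies inside Pvf2, the PDGF/VEGF-like ligand gene, itself ISC/EB-biased at 1.71 and -0.26. The antisense transcript asRNA:CR43723 (3.34 and 0.19) overlaps Coop, a corepressor gene of Pangolin, at 2.85 and -0.08. Or71a, an odorant receptor gene, stood at 2.25 and -0.51 and lies inside Plp, a pericentrin-like gene at 0.98 and -0.27. The remaining genes of the 20 were CG17002, CG32170, CG31848, CG15083, CG32091, CG15629 and CG6845. CG17002, which overlaps no other gene, had the highest difference of them, with 3.05 in ISC/EBs and -0.31 in ECs over 10 fragments.

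The 20 genes with the largest EC excess, ranked in the same way among biased genes with at least 5 fragments, were read next. They lay between 2.45 and 3.32 in ECs and between -0.48 and 0.64 in ISC/EBs as deposited. Of their 183 fragments, 182 were higher in ECs, a count that the ranking on these same fragments favored. The Jonah genes, which encode serine endopeptidases of the gut, had 4 members among them: Jon99Ci, Jon65Aii, Jon65Aiii and Jon74E. Jon99Ci had the largest difference, with 8 fragments between 2.64 and 3.53 in ECs and between -0.52 and -0.16 in ISC/EBs. Its difference was -3.43 as deposited and -3.70 after normalization. Argl, which encodes argininosuccinate lyase, stood at 3.32 in ECs and 0.64 in ISC/EBs, and it overlaps the end of Tsp29Fb, a tetraspanin gene that was EC-biased as well (2.91 and 1.80).

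MFS1, which encodes a major facilitator superfamily transporter, stood at 2.45 in ECs and -0.48 in ISC/EBs. Eglp1, an entomoglyceroporin gene of the aquaporin family, stood at 2.47 and -0.13, and Alp9, an alkaline phosphatase gene, at 2.56 and -0.00. Bace, which encodes an aspartyl protease, stood at 2.68 and 0.01. The other 11 genes were known by CG numbers only. CG4653 (3.07 in ECs and -0.18 in ISC/EBs) and CG9673 (3.12 and 0.13) lie inside CG4678, and CG31233 (2.57 and -0.10) and CG31198 (2.88 and 0.38) stand next to each other on 3R. The others were CG31300, CG15255, CG10911, CG34040, CG31288, CG13360 and CG14205.

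Among equally occupied genes with at least 5 fragments, the 15 with the highest level in the lower population were named. Their deposited means lay between 2.71 and 3.20 in ISC/EBs and between 2.49 and 2.82 in ECs. Their differences lay between 0.12 and 0.48 as deposited and between -0.48 and -0.10 after normalization, so all 15 were above 0 on the deposited scale and below 0 on the normalized one. They include ifc, which encodes the dihydroceramide desaturase, with 3.20 in ISC/EBs and 2.75 in ECs. COX5B, a subunit of cytochrome c oxidase, stood at 2.87 and 2.63, and ATPsynC, the c subunit of ATP synthase, at 2.98 and 2.54. Fer2LCH, the ferritin light chain gene, stood at 2.97 and 2.54, and it overlaps the heavy chain gene Fer1HCH. Cth, which encodes cystathionine gamma-lyase, stood at 2.71 and 2.59, the closest pair of means among the 15. The remaining genes were CG31548, Cndp2 (a dipeptidase gene), CG12379, Cys (a cystatin gene), CG17734, lncRNA:CR42491 (which overlaps RpL22), lncRNA:CR45280, HINT1, CG8319 and CG9855. In ifc the level varied more along the gene than between populations, since its 12 fragments ran from 0.04 to 3.94 in ISC/EBs and from 0.06 to 3.37 in ECs, while the difference within a fragment ran only from -0.11 to 1.01.

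**Figure D2:**
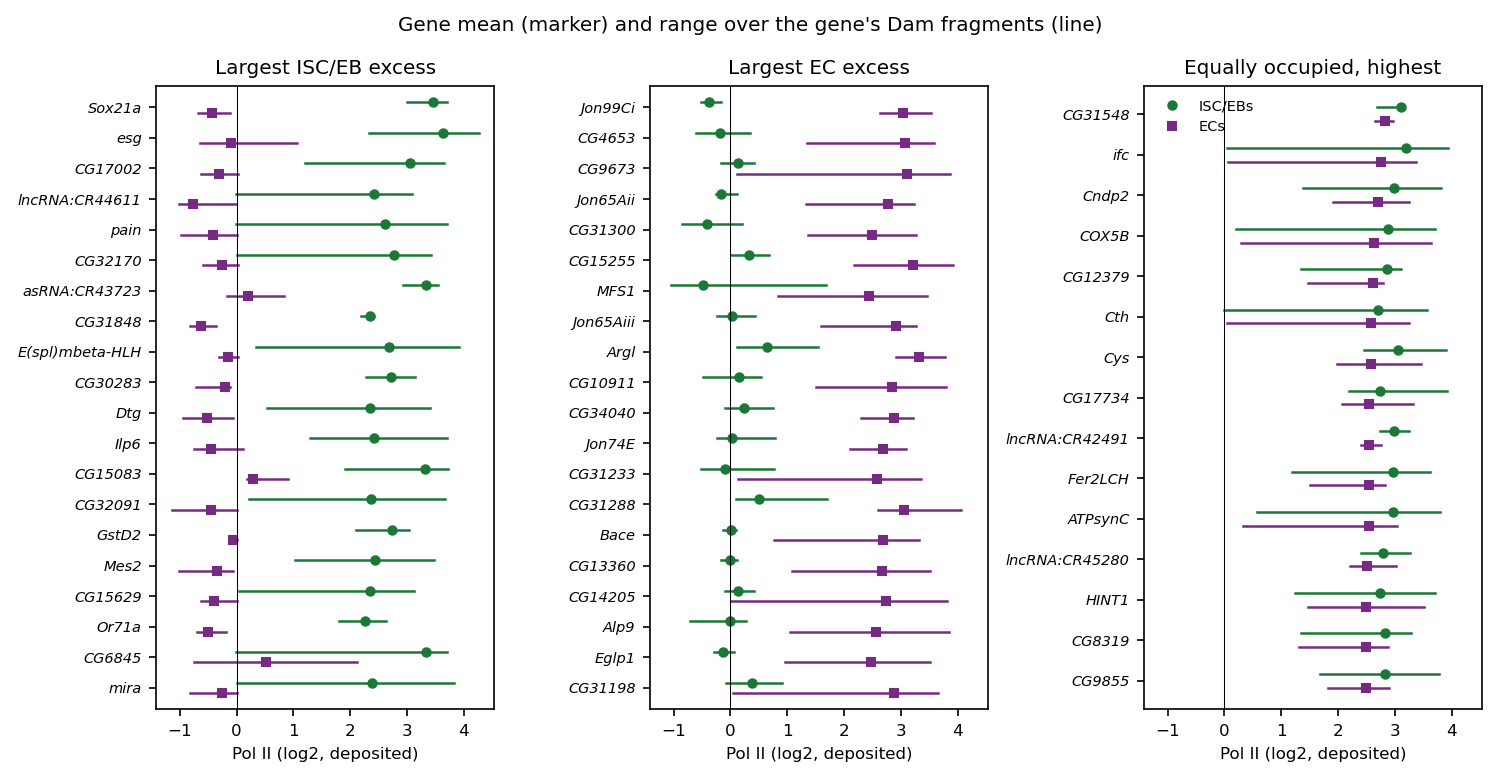
Deposited log2 occupancy of the 20 genes with the largest ISC/EB excess (left), the 20 with the largest EC excess (middle) and the 15 highest equally occupied genes (right). All were taken from genes with at least 5 fragments. Markers give the gene mean and lines the range over its fragments (green circles for ISC/EBs, purple squares for ECs). The ISC/EB means of the left panel lie between 2.25 and 3.63 and the EC means of the middle panel between 2.45 and 3.32, while in the right panel both ranges overlap in every gene.

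**Figure D3:**
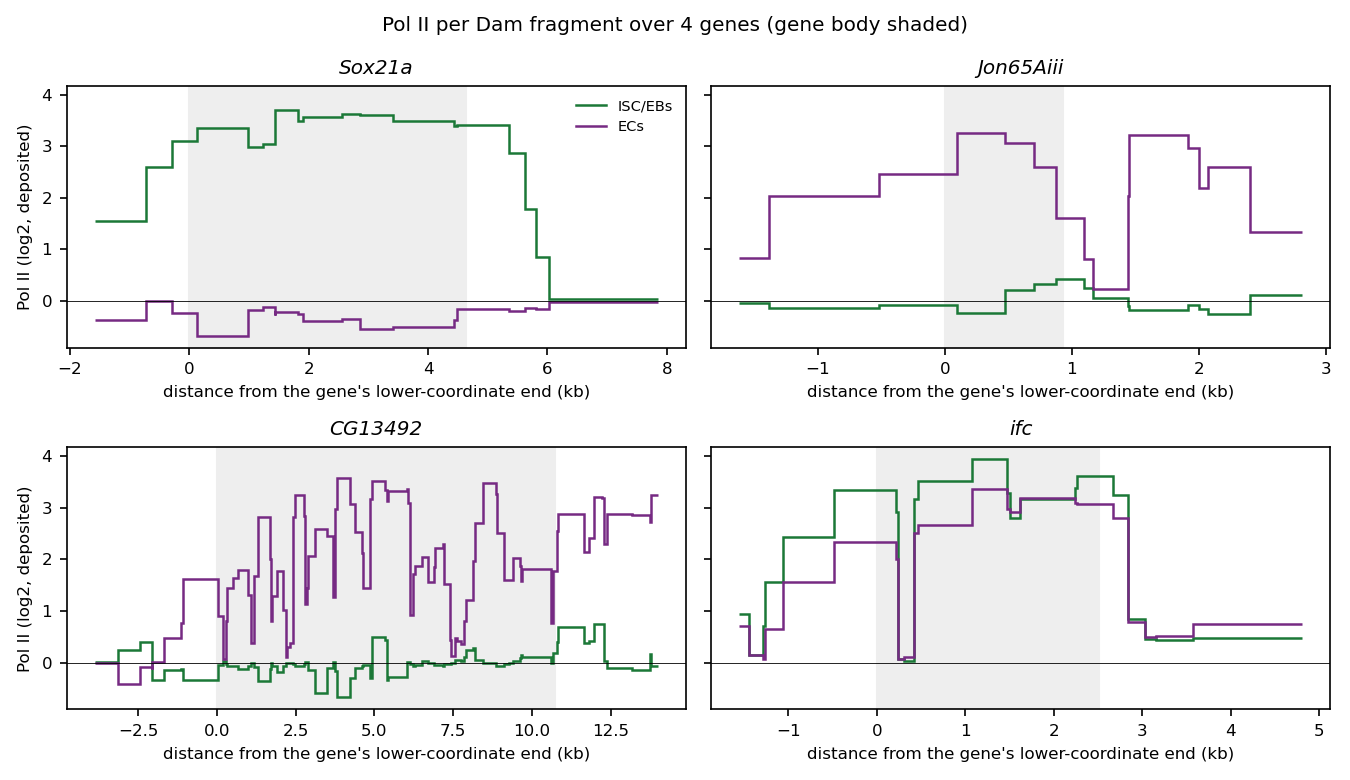
Pol II occupancy of single fragments (log2, deposited) in ISC/EBs (green) and ECs (purple) along Sox21a, Jon65Aiii, CG13492 and ifc, by distance in kb from the end of the gene with the lower coordinate; the gene is shaded. The ISC/EB line stays between 2.99 and 3.70 over Sox21a, the EC line between 1.60 and 3.26 over Jon65Aiii, and the 2 lines follow the same course over ifc.

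Functions at the ISC/EB end were examined by gene lists, read as counts in each class, beside 3.06% ISC/EB-biased and 2.82% EC-biased among all genes, and as the median difference beside that of all genes. No difference between lists was tested. The 11 genes of the E(spl) complex, which encode bHLH repressors and Bearded-family proteins induced by Notch, had a median difference of 1.34 as deposited and 1.13 after normalization, and 6 of 11 were ISC/EB-biased (54.5%). E(spl)malpha-BFM stood at 2.30 in ISC/EBs and -0.16 in ECs, E(spl)mgamma-HLH at 2.01 and -0.17, and E(spl)m3-HLH at 2.0 and -0.15. E(spl)m6-BFM was low in both, at 0.20 and 0.06. Of 20 core Notch pathway genes, 3 were ISC/EB-biased (15%): the ligand gene Delta (1.45 in ISC/EBs and -0.15 in ECs), the receptor gene N (1.24 and -0.21) and spdo (1.40 and -0.24), which encodes a partner of Notch in asymmetric division. The list's median was 0.66 and 0.33. The other ligand gene, Ser, was not occupied in either population (-0.20 and -0.11).

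In the EGFR and Ras list, 5 of 24 genes (20.8%, beside 3.06% of all genes) were ISC/EB-biased and none EC-biased, with a median of 0.54 as deposited and 0.33 after normalization. The 5 were the ligand gene spi (1.93 in ISC/EBs and 0.29 in ECs), the receptor gene Egfr (1.91 and -0.27), the adaptor gene drk (1.90 and 0.20) and the feedback inhibitor genes aos (1.30 and -0.16) and sty (2.49 and 0.14). Of these, drk overlaps mars, which was ISC/EB-biased as well. The kinase gene Dsor1, the fly MEK, was lower and similar in both, at 0.57 and 0.41. In the PVR, FGF and insulin list, 3 of 28 genes (10.7%) were ISC/EB-biased: Ilp6 and Pvf2, given above, and the kinase gene Akt (1.22 and -0.20). The list's median of 0.38 went to 0.09 on the normalized scale. foxo, which encodes the transcription factor that insulin signaling restrains, was equally occupied at 1.78 and 1.36.

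In the JAK/STAT and JNK list, 3 of 22 genes (13.6%) were ISC/EB-biased, with a median of 0.74 and 0.30. These were the TNF ligand gene egr (2.63 in ISC/EBs and 0.57 in ECs), the adaptor gene Traf4 (2.0 and -0.01) and dome (1.67 and 0.20), which encodes the receptor of the JAK/STAT pathway. Traf4 overlaps lncRNA:CR45363, which was in the same class. Of 17 Hippo pathway genes, Tgi, which encodes a corepressor of Scalloped, was ISC/EB-biased (5.88%), at 1.91 and -0.28. The coactivator gene yki itself was close in both, at 1.10 and 0.92. None of 41 genes of the Wnt, Hedgehog and BMP list was biased to either side. Toward its EC end was daw, an activin-like ligand gene, with 0.60 in ISC/EBs and 1.44 in ECs (difference -0.84 as deposited and -1.27 normalized). At its ISC/EB end was brk, a repressor of BMP targets, with 1.38 and 0.20 (1.18 and 0.78). Dad, the inhibitory Smad gene, was equally occupied at 1.61 and 1.35. Of 23 axon guidance genes, robo2, a Slit receptor gene, was ISC/EB-biased (2.14 and -0.30), a share of 4.35%, near the 3.06% of all genes. It overlaps lncRNA:CR44898 and asRNA:CR44897, which were in the same class.

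Integrin and basement membrane genes were the pathway list farthest to the ISC/EB side after the E(spl) complex and the 2 lists drawn from the study. Of 25 genes, 5 were ISC/EB-biased (20%), and the median was 0.84 as deposited and 0.50 after normalization. They include the integrin alpha subunit gene scb (2.23 in ISC/EBs and 0.52 in ECs), the talin gene rhea (1.49 and -0.08), stck, which encodes the adaptor PINCH (2.18 and 0.51), and the laminin genes LanB1 (1.38 and -0.01) and LanB2 (1.12 and -0.12). The basement membrane genes Ndg and Ppn were at or below -0.07 in both populations.

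Division genes were higher in ISC/EBs in nearly all cases and by small amounts. Over all genes, 65.5% were higher in ISC/EBs as deposited and 49.4% after normalization. The deposited counts include the shift with level. Genes whose mean of both populations was from 0.5 to 1 had a median difference of 0.51 as deposited and 0.12 after normalization. Of 33 cell cycle control genes, 33 were higher in ISC/EBs as deposited and 29 after normalization, with medians of 0.74 and 0.37, but only 2 (6.06%) passed the thresholds: pim, which encodes securin (1.67 in ISC/EBs and -0.12 in ECs), and CycB, a mitotic cyclin gene (1.77 and 0.16). Of 39 DNA replication genes, 38 and then 34 were higher in ISC/EBs (medians 0.60 and 0.29), and 1 was ISC/EB-biased (2.56%, near the share of all genes), the origin recognition gene Orc2 at 2.15 and 0.02. Psf3, a GINS subunit gene that overlaps another gene, was the exception on the deposited scale, at 1.63 in ISC/EBs and 2.07 in ECs (-0.45, and -1.07 normalized). Of 39 genes of spindle, centrosome and chromosome structure, 3 were ISC/EB-biased (7.69%): mira, given above, insc, which orients the spindle in asymmetric division (2.43 and 0.62), and the septin gene Septin1 (1.88 and 0.40). Among them, insc overlaps sktl, which was in the same class.

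Nucleolar and chromatin genes showed the same small lean, beside 65.5% and 49.4% of all genes higher in ISC/EBs on the 2 scales. Of 34 ribosome biogenesis genes, all 34 were higher in ISC/EBs as deposited and 29 after normalization (medians 0.68 and 0.36), and Surf6 (2.18 in ISC/EBs and 0.24 in ECs) and Nph (2.54 and 0.84) were ISC/EB-biased. Of 41 genes of remodelers, Polycomb and Trithorax, 39 and then 32 were higher in ISC/EBs (medians 0.47 and 0.26), with 1 biased gene (2.44%), ash2, a subunit gene of histone H3 lysine 4 methyltransferases, at 2.01 and 0.44. It overlaps CG31125, which was in the same class. In the splicing and mRNA processing list, CstF50 was the 1 biased gene of 45 (2.22%), at 2.15 and 0.36.

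A pair of lists came from the study itself. It chose the transcription factor list on these samples, so the direction of that list is not independent evidence. The marker list was compiled by the study from known expression in stainings, reporters and in situ hybridization. Both lists were taken up here with earlier results of these data known. All 11 transcription factor genes were ISC/EB-biased by the present rule, with Sox100B, a SoxE gene, at the lower end (1.45 in ISC/EBs and -0.06 in ECs). Of the 16 known ISC/EB markers, 9 were ISC/EB-biased. At the other end stood Cdk1, the mitotic kinase gene, with 2.71 and 2.14, and Pvr, the PDGF/VEGF receptor gene, with 0.49 and 0.25. Their differences were 0.57 and 0.24 as deposited and -0.10 and -0.03 after normalization.

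Functions at the EC end were led by digestion. Of 11 trypsin genes, none was higher in ISC/EBs on either scale and 8 were EC-biased (72.7%, beside 2.82% of all genes), with a median difference of -1.80 as deposited and -2.27 after normalization. kappaTry stood highest at 3.04 in ECs and -0.01 in ISC/EBs, followed by thetaTry (2.63 and 0.83), while gammaTry stood at 0.00 in both. Near-identical neighbours such as these may share reads, and the depth behind gammaTry was not determined. Of 16 Jonah genes, 9 were EC-biased (56.3%) and none was higher in ISC/EBs (medians -1.10 and -1.44). Jon66Cii and Jon66Ci were low in both populations, with 0.03 and 0.19 in ECs. Of 13 maltase and amylase genes, 6 were EC-biased (46.2%, medians -0.73 and -1.33), among them Mal-A4 (2.05 in ECs and 0.51 in ISC/EBs) and the amylase gene Amy-p (1.49 and 0.38), while Amy-d stood at -0.04 and -0.02. All 6 lysosomal alpha-mannosidase genes were higher in ECs (medians -1.23 and -1.51), and LManI (1.82 and 0.28) and LManII (1.39 and 0.08) were EC-biased. Among 5 lysozyme genes with enough fragments, LysE reached 2.78 in ECs against 0.18 in ISC/EBs.

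The lining of the gut was split by gene. Of 43 genes of the peritrophic matrix and mucins, 5 were EC-biased (11.6%), and the list's median of -0.08 and -0.10 was near that of all genes after normalization. Muc55B, a mucin gene, stood at 2.54 in ECs and -0.10 in ISC/EBs, Peritrophin-15a at 2.02 and 0.41 and Peritrophin-15b at 1.78 and 0.40. The chitinase gene Cht9 stood at 1.53 and 0.23. Peritrophin-A was low in both populations, at -0.06 and 0.24.

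Detoxification genes were read in 3 enzyme families. Of 85 cytochrome P450 genes, 13 were EC-biased (15.3%) and 1 was ISC/EB-biased, with medians of -0.16 as deposited and -0.37 after normalization. The highest EC means among the 13 were those of Cyp12a4 (2.31 in ECs and 0.86 in ISC/EBs), Cyp9b2 (2.21 and 0.83) and Cyp4e1 (2.21 and 0.53). Cyp6g1, known for insecticide resistance, stood at 1.49 and 0.44. Cyp305a1 was the ISC/EB-biased member, at 1.81 in ISC/EBs and 0.08 in ECs. Of 35 UDP-glycosyltransferase genes, 3 were EC-biased (8.57%; list medians -0.05 and -0.34), with Ugt37A2 at 1.70 in ECs and -0.29 in ISC/EBs, and 3 were equally occupied (Ugt35A1, Ugt304A1 and Ugt303A1). Of 35 glutathione transferase genes, none was EC-biased and 3 were ISC/EB-biased (8.57%). The list's median difference was 0.33 as deposited and 0.06 after normalization, with 18 of 35 higher in ISC/EBs on the latter scale. The 3 biased genes are neighbours: GstD2 (given above), GstD3 (3.0 in ISC/EBs and 0.30 in ECs) and GstD4 (2.77 and 0.48). The family had a high median level in both populations, 1.99 in ISC/EBs and 1.33 in ECs, and GstE9 was equally occupied at 3.18 and 3.02.

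Lipid and nutrient genes held members at both ends. Npc1a and Npc1b both encode Niemann-Pick type C1 sterol transporters. Npc1a stood at 1.40 in ISC/EBs and -0.15 in ECs, and Npc1b, known for sterol uptake in the gut, at -0.15 in ISC/EBs and 1.5 in ECs. Of the lumenal partners, Npc2a stood at 3.13 in ISC/EBs and 0.90 in ECs and Npc2f at 0.49 and 1.80. The lipase gene mag was EC-biased (1.82 in ECs and -0.00 in ISC/EBs), as was the lipophorin receptor gene LpR1 (1.0 and -0.06). Of the list's 38 genes, 4 were equally occupied, among them 3 of lipid storage: the lipase gene bmm stood at 2.12 in ISC/EBs and 1.68 in ECs, while perilipin genes Lsd-2 and Lsd-1 stood at 2.59 and 2.21, and at 1.29 and 1.17. Among 23 sugar and amino acid transporter genes, the amino acid transporter gene slif was EC-biased (1.83 in ECs and 0.57 in ISC/EBs), as was the peptide transporter gene yin (1.70 and 0.60), while mnd, of the same broad class as slif, was ISC/EB-biased at 2.10 in ISC/EBs and -0.01 in ECs. In that list, 4 genes were EC-biased in all (17.4%).

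Metal handling and the proton pump each held 1 EC-biased gene and no ISC/EB-biased gene. Those shares, 4.5% of 22 and 3.1% of 32 genes, were near the 2.82% of all genes. Of 22 metal handling genes, the metallothionein gene MtnC was EC-biased at 2.49 in ECs and 0.33 in ISC/EBs, while MtnA was equally occupied at 2.06 and 2.49. Of 32 genes of the vacuolar proton pump, only Vha100-5, an a-subunit gene, was biased, at 2.55 in ECs and 0.13 in ISC/EBs. Its paralog Vha100-2 was equally occupied, with 1.43 in ECs and 1.76 in ISC/EBs. The list's median difference was 0.00 as deposited and -0.23 after normalization.

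Junction genes likewise lay at both ends. Tsp2A and Ssk, which encode membrane proteins of the smooth septate junction of gut cells, were EC-biased, with 2.29 and 3.17 in ECs and 1.17 and 1.51 in ISC/EBs. bou, which encodes a Ly6 protein needed for septate junctions of other epithelia, was ISC/EB-biased at 2.71 and -0.36 over 3 fragments, and nrv2, a Na,K-ATPase beta subunit gene, at 1.62 and 0.15. Fim, an actin bundling protein gene, was the 1 biased gene of 19 in the brush border and apical cytoskeleton list, at 2.75 in ISC/EBs and 1.10 in ECs. Myo61F, a brush border myosin gene, stood at 1.70 in ISC/EBs and 2.11 in ECs (-0.41, and -0.95 normalized). Innexins, chosen here after their values were seen, split too: Inx3 stood at 2.11 in ISC/EBs and 0.16 in ECs, and Inx2 (0.27 and 1.41) and Inx7 (0.03 and 1.96) were EC-biased.

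Among 23 genes of peptidoglycan recognition and antimicrobial peptides, 3 were ISC/EB-biased (13.0%) and none EC-biased: the receptor gene PGRP-LC (2.57 in ISC/EBs and 1.03 in ECs), its relative PGRP-LA (1.99 and 0.27), and the secreted recognition protein gene PGRP-SD (1.64 and -0.31), which overlaps another gene. The amidase gene PGRP-SC1b was higher in ECs on both scales, with 0.70 in ECs and -0.01 in ISC/EBs (-0.70, and -0.97 normalized). The intracellular receptor gene PGRP-LE stood at 1.60 in ISC/EBs and 1.79 in ECs.

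Most regional and midgut transcription factor genes had little Pol II. Of 31, only 10 reached 1 in either population, and 19 were higher in ISC/EBs as deposited and 8 after normalization (medians 0.03 and -0.04). Each class held 1 of the 31 (3.23%). Over all genes the shares were 3.06% ISC/EB-biased, 2.82% EC-biased and 4.33% equally occupied, so each count was near that of all genes. A forkhead factor gene of the gut, fkh, was ISC/EB-biased (1.88 and 0.29). The EC-biased gene was odd (1.99 in ECs and 0.66 in ISC/EBs), and exex was equally occupied (1.88 in ISC/EBs and 1.69 in ECs). The gut GATA factor gene GATAe stood at 2.16 in ISC/EBs and 2.10 in ECs. Its difference of 0.06 became -0.56 after normalization, just past the limit for the equal class. Of 21 nuclear receptor genes none fell in any class. Hnf4, which governs lipid metabolism, stood at 2.52 in ISC/EBs and 1.45 in ECs (1.06, and 0.45 normalized). Hr96, which binds sterols and controls lipid genes, stood at 0.89 and 1.72 (-0.83, and -1.35 normalized).

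**Figure D4:**
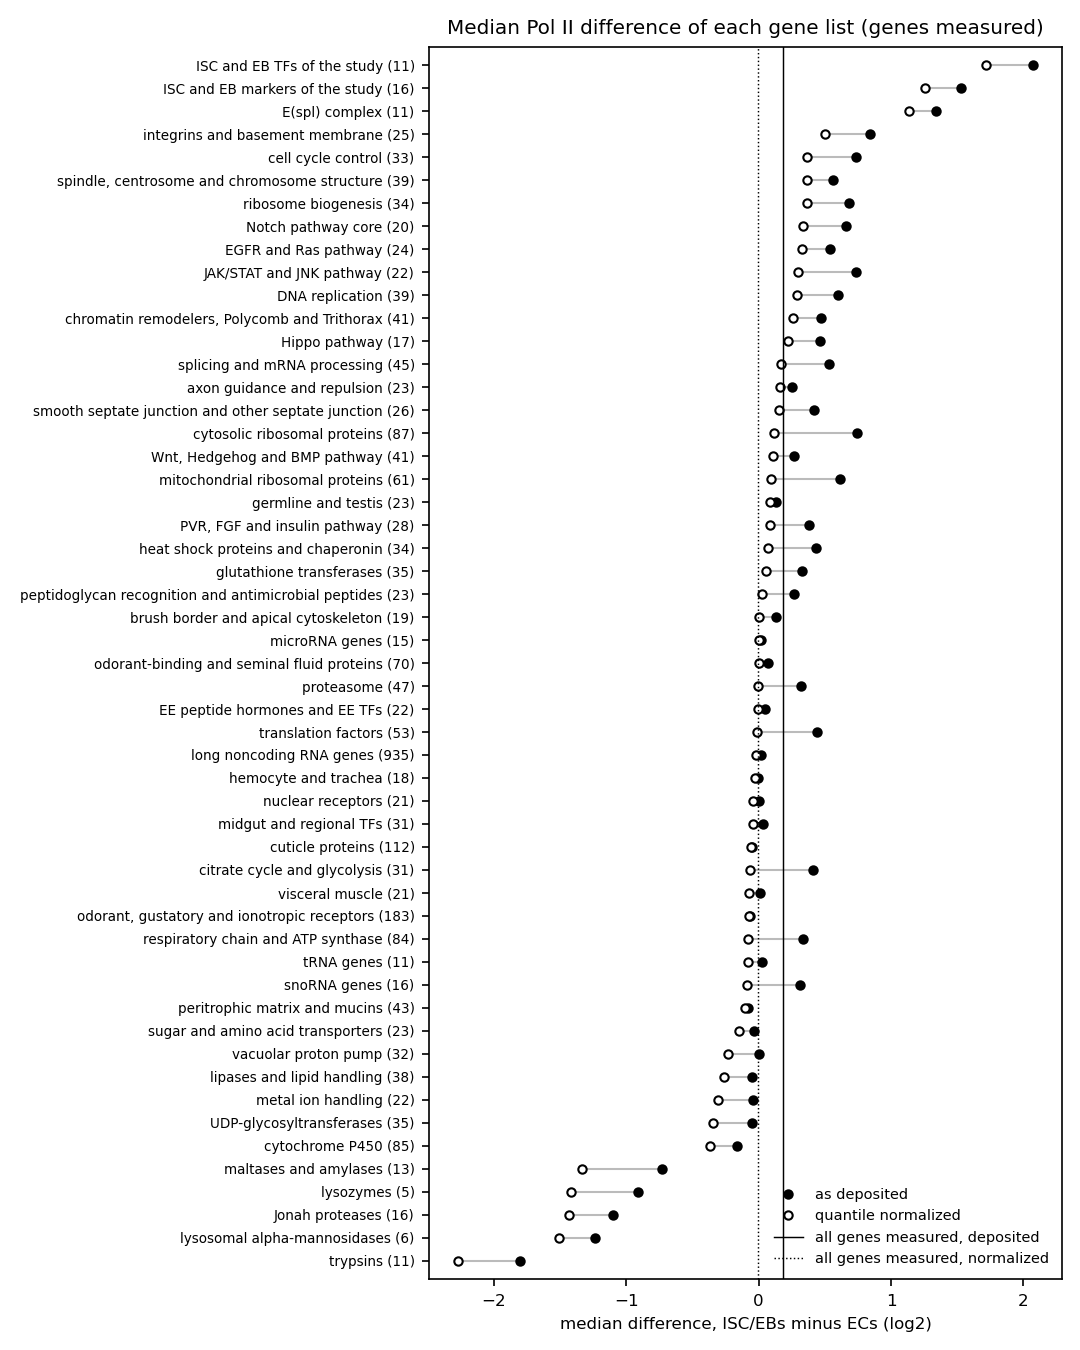
Median difference in Pol II occupancy, ISC/EBs minus ECs (log2), of the genes measured in each of 53 lists, as deposited (filled) and after quantile normalization (open), with the medians over all genes measured as lines at 0.19 (solid) and -0.00 (dotted). Lists of digestive enzymes lie to the left on both scales, while lists of ribosomal, respiratory and proteasome genes lie to the right of 0 as deposited and near 0 after normalization.

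Equally occupied genes were found in lists of general cell functions and in some of gut functions, beside 4.33% of all genes. Of 84 respiratory chain and ATP synthase genes, 19 were equally occupied (22.6%). Their levels ranged from those of RFeSP (1.31 in ISC/EBs and 1.13 in ECs), the Rieske iron-sulfur subunit gene, to those of ATPsynC, given above. Of 31 genes of the citrate cycle and glycolysis, 7 were equally occupied (22.6%), among them Eno, which encodes enolase (2.02 and 1.61), and the citrate synthase gene kdn (1.80 and 1.38). Of 53 translation factor genes, 7 were in this class (13.2%), such as eEF2 (2.11 and 1.65), as were 5 of 47 proteasome genes (10.6%), such as Rpn7 (2.49 and 2.19), 3 of 34 chaperone genes (8.82%), such as Hsp83 (2.06 and 1.58), and 11 of 87 cytosolic ribosomal protein genes (12.6%), such as RpL28 (2.38 and 2.24). The share was 4.92% among 61 mitochondrial ribosomal protein genes, near that of all genes. It was 18.2% among 22 metal handling genes, 10.5% among 38 lipid genes and 9.38% among 32 proton pump genes. An equal class has a floor of 1 in both populations, which 2320 genes passed, so lists of highly occupied genes had more members that could be counted.

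The direction of 4 of the general lists turned on the scale. The median difference of the respiratory chain list was 0.34 as deposited and -0.08 after normalization, that of citrate cycle and glycolysis 0.41 and -0.07, that of translation factors 0.44 and -0.01, and that of the proteasome 0.32 and -0.00. No direction can be given for these 4 from the tracks. The ribosomal lists shrank without turning. Cytosolic ribosomal protein genes went from 0.74 to 0.11, with 83 of 87 higher in ISC/EBs as deposited and 56 after normalization, and mitochondrial ribosomal protein genes from 0.62 to 0.09.

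Within the same lists, single genes fell in a biased class. The ISC/EB-biased share was 2.3% of cytosolic ribosomal, 2.13% of proteasome and 1.89% of translation factor genes, under the 3.06% of all genes. The EC-biased share was 1.19% of respiratory chain and 6.45% of citrate cycle and glycolysis genes, beside 2.82% of all genes. RpS19b, a paralog of the ribosomal protein gene RpS19a, stood at 2.44 in ISC/EBs and 0.52 in ECs, and RpL35 at 3.18 and 1.47. Prosbeta5, a catalytic subunit gene of the proteasome, stood at 2.42 and 0.77. eIF5B, which joins ribosomal subunits, stood at 1.80 and 0.03. On the other side, UQCR-11L, a paralog of a complex III subunit gene, stood at 1.68 in ISC/EBs and 2.99 in ECs. Only 7 fragments were counted over UQCR-11L and its EC-biased neighbour CG30355 together. Hex-C, a hexokinase gene, stood at 0.93 and 2.46, and its paralog Hex-A, in no class, at 2.52 and 1.52 (1.01, and 0.37 normalized). Idh3b, an isocitrate dehydrogenase subunit gene, stood at 0.85 and 1.89, while Idh3a of the same enzyme was equally occupied at 1.78 and 1.53.

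Genes of other tissues were mostly near 0. Of 183 odorant, gustatory and ionotropic receptor genes, 5 were ISC/EB-biased (2.73%, beside 3.06% of all genes) and 1 EC-biased (0.55%, beside 2.82%). Their median level was -0.16 in ISC/EBs and -0.12 in ECs. Or71a, Ir51b and Gr77a among the 5 overlap other genes. Gr93a (1.34 in ISC/EBs and -0.31 in ECs), Gr59f (1.04 and -0.29) and the EC-biased Gr39b (0.23 and 1.56) overlap none. Of 112 cuticle protein genes, 1 was ISC/EB-biased (0.89%), Cpr51A at 1.77 and -0.12. Of 70 odorant-binding and seminal fluid genes, 2 were (2.86%), Acp26Aa (1.47 and -0.73) and Obp44a (1.17 and -0.16). Cpr51A overlaps CG30197 and Obp44a overlaps Pabp2, both ISC/EB-biased, so these values cannot be assigned to 1 partner. Of 22 EE genes, the ion transport peptide gene ITP was ISC/EB-biased (1.99 and 0.09), a share of 4.55%. Of 23 germline and testis genes, nht was (1.98 and -0.14), a share of 4.35%. These shares are near that of all genes. None of 21 visceral muscle genes or 18 hemocyte and trachea genes fell in a class.

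Long noncoding RNA genes were more frequent in the ISC/EB-biased class than among all genes, although the type as a whole did not lean to ISC/EBs. The 935 in the list had a median difference of 0.02 as deposited and -0.02 after normalization. On the latter scale 43.4% were higher in ISC/EBs. Of the 453 ISC/EB-biased genes, 59 were annotated as long noncoding RNA genes (13.0%), against 18 of the 417 EC-biased genes (4.32%) and 970 of all 14803 genes (6.55%). lncRNA:CR43883 (3.40 in ISC/EBs and -0.45 in ECs) and lncRNA:CR44547 (3.18 and -0.35) had the largest differences, and neither overlaps another gene. Both had fewer than the 5 fragments required of the ranked genes above, so each value rests on little sequence. Others, such as lncRNA:CR44611 in Pvf2, share fragments with a coding gene of the same class. On the other side, lncRNA:CR44469 stood at 3.14 in ECs and -0.02 in ISC/EBs. It is the neighbour of the EC-biased CG13360, and of the 16 fragments counted over both genes, 12 were those of CG13360. ISC/EB-biased genes had a median length of 1883 bp, EC-biased genes of 1842 bp, equally occupied genes of 1979 bp and all genes of 2130 bp. The share of ISC/EB-biased genes was 3.89% on 2R and 2.30% on the X, and that of EC-biased genes lay between 2.76% and 2.92% on the 5 large arms.

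Some biased genes stood side by side, and the share was largest for EC-biased genes. The share that random placement would give was not computed, and neighbours can share a fragment at their boundary. The ISC/EB-biased count includes the genes inside Egfr, described below. Of the 417 EC-biased genes, 201 (48.2%) lay in runs of neighbouring EC-biased genes with at least 2 members that do not overlap each other, against 128 of 453 ISC/EB-biased genes (28.3%) and 112 of 641 equally occupied genes (17.5%). The longest EC-biased run was the trypsin cluster on 2R (Release 6, 11336840 to 11347395), with 8 genes and 58 fragments. Its genes had EC means between 1.22 and 3.04 and ISC/EB means between -0.21 and 0.83. A run of 6 genes on 2R (18048108 to 18059075), of which 5 do not overlap each other, held Muc55B with CG34005, CG14495, CG10911, CG10912 and lncRNA:CR45314, at a median difference of -2.52 (-2.83 normalized). On the X (16696131 to 16711145), sphe, which encodes a serine protease homolog, lay with CG4678, CG9676, CG9673, CG4653 and CG9672, with EC means from 1.40 to 3.12. Runs of 5 genes on 2R joined MFS1 to CG30265, CG12490, CG9825 and CG9826, and Cyp4e1 to the maltase genes Mal-A1 to Mal-A4. The 4 entomoglyceroporin genes Eglp1 to Eglp4 made another, with EC means from 1.40 to 2.60. CG13492, the longest gene of a run of 4 on 2R, stood at 2.12 in ECs and -0.07 in ISC/EBs over 75 fragments.

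The longest ISC/EB-biased runs had 4 genes that do not overlap each other. The first, on 2R (21522420 to 21559977), is Egfr with 4 genes inside it, CG30286, CG30287, CG33226 and CG30283, and its values are shared among them. The second, on 3R (26016514 to 26023127), held E(spl)m2-BFM, lncRNA:CR43643, lncRNA:CR43644 and E(spl)m3-HLH, with ISC/EB means from 2.0 to 2.82. Runs with 3 such genes held miple1 and miple2, which encode midkine and pleiotrophin homologs (2.25 and 2.70 in ISC/EBs, and 0.19 and 0.18 in ECs), GstD2 to GstD4, fkh with lncRNA:CR43126 and Noa36, and CG15262, nht and esg. In the last of these, on 2L (15297808 to 15336138), the mean rose from 1.10 in CG15262 to 1.98 in nht and 3.63 in esg, with EC means from -0.37 to -0.10.

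Among adjacent pairs of genes that do not overlap, 3 held 1 gene of each biased class. The number that random placement would give was not computed, and neighbours can share a fragment at their boundary. bou (2.71 in ISC/EBs and -0.36 in ECs, over 3 fragments) and Inx7 (0.03 and 1.96) are 4423 bp apart on the X. Grip, which encodes a scaffold protein with PDZ domains, (1.47 and -0.23) and CG5966 (0.25 and 2.44) are 2091 bp apart on the X. Ir51b (1.32 and -0.31) and CG8093 (0.88 and 2.5) are 4273 bp apart on 2R.

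Sox21a binding in ISC/EBs, measured in other samples with their own Dam controls, was read over the same genes. The median Sox21a occupancy (log2, deposited) was 1.23 in ISC/EB-biased genes, 0.91 in equally occupied genes and 0.13 in EC-biased genes, beside 0.12 in all genes. A Sox21a peak of the authors overlapped 304 of 453 ISC/EB-biased genes (67.1%), 304 of 641 equally occupied genes (47.4%) and 44 of 417 EC-biased genes (10.6%), against 19.6% of all genes. Over all 14803 genes, Sox21a occupancy had a Pearson's r of 0.818 with ISC/EB Pol II, 0.600 with EC Pol II and 0.464 with their difference, which was 0.222 on the normalized scale. These are correlations across genes, which share cells, fragments and base composition and are not independent.

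The shares varied with Pol II level and gene size. Among genes with an ISC/EB mean between 1 and 1.5, a peak overlapped 50% of 120 ISC/EB-biased genes and 48.3% of 172 equally occupied ones. In the 3 higher ranges the ISC/EB-biased share was the larger: 68.2% against 41.0% from 1.5 to 2, 66.0% against 50.8% from 2 to 2.5, and 87.8% against 64.7% at 2.5 or more. Among genes with 3 to 5 fragments the share was 49.4% of ISC/EB-biased, 28.8% of equally occupied and 4.82% of EC-biased genes. Among genes with more than 20 fragments it was 97.3%, 92.7% and 23.8%. ISC/EB-biased genes thus had a higher share than EC-biased genes at both sizes, but in large genes the equally occupied share was close to theirs. Of the 20 genes with the largest ISC/EB excess, 19 had a peak and Or71a had none. Of the 20 with the largest EC excess, only CG31288 had one.

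**Figure D5:**
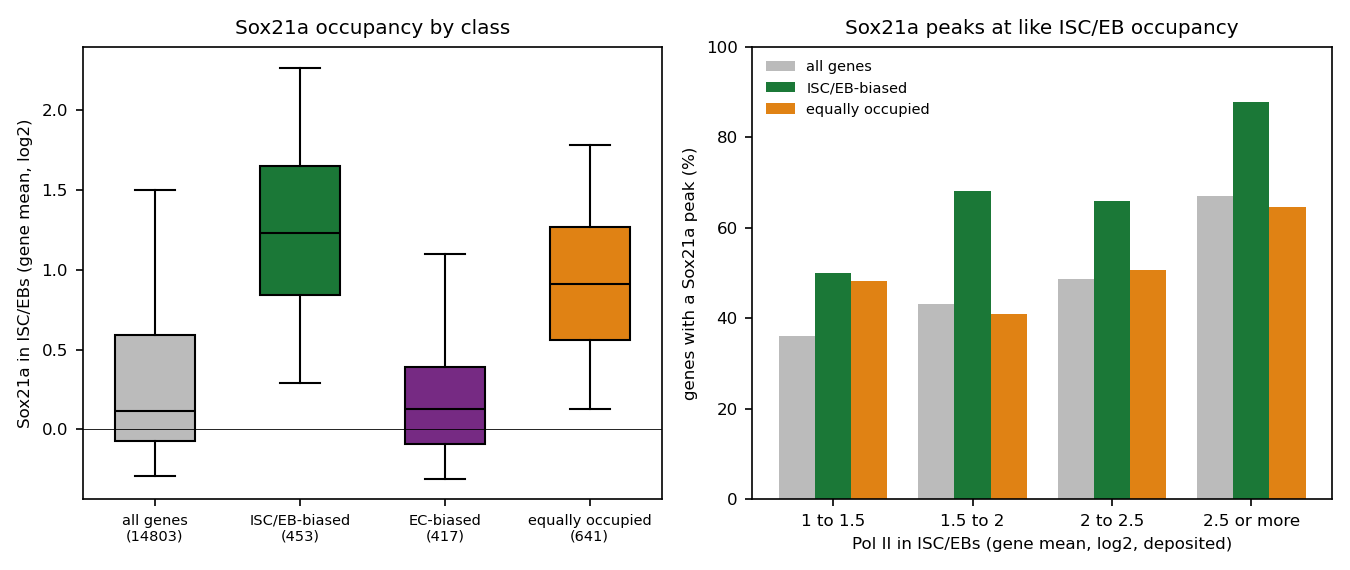
Left, Sox21a occupancy in ISC/EBs (gene mean, deposited log2) of all genes and of the 3 classes, with the median, quartiles and 5th to 95th percentiles; right, the percentage of genes with a Sox21a peak by ISC/EB Pol II occupancy, for all genes, ISC/EB-biased and equally occupied genes. Median Sox21a is 1.23 in ISC/EB-biased and 0.13 in EC-biased genes, and the ISC/EB-biased and equal bars are 50% and 48.3% in the lowest range of Pol II and 87.8% and 64.7% in the highest.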

How the data were processed

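Midgut DNA was digested with DpnI, which cuts methylated GATC, then ligated to adaptors, amplified and sequenced. Per experiment, the authors deposited an averaged track with a log2 ratio (fusion over Dam) for every fragment, and they deposited Sox21a peaks (FDR below 0.01) with a score. For aligner, normalization and peak caller, nothing is given in the sources used here, and read depth was not determined. Columns of no sample numbered 0.

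Fragment values were averaged over the genes of the Release 6 RefSeq table, weighted by length inside the gene (minimum 3 fragments). Both Pol II tracks were quantile normalized over fragments. Last fragments and genes of each chromosome arm were checked to lie on the same build. Code was tested on simulated data. Members, lists, rules and thresholds were chosen with earlier results of these data known. Named genes were the 20 largest normalized differences in each direction, not overlapping one another, and the 15 highest equally occupied genes. Both sets required at least 5 fragments. Members of lists in a class or at the ends of a list, and members of the longest runs, were also named. Symbol families and neighbour pairs were chosen after values were seen. Alternatives changed the scale, fragment weights, fragment and gene filters and thresholds (11 settings). Promoter sequences were not used here. Python 3.11.15, numpy 2.4.6, pandas 2.3.3 and matplotlib 3.10.9 were used.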

Additional observations from a re-analysis of the deposited data

How the results depend on the processing

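No paired analysis was possible because the 2 samples of each group were averaged before deposit, and for the same reason no sample could be left out. The counts of ISC/EB-biased, EC-biased and equally occupied genes were 453, 417 and 641. With the scale they moved to 1256, 417 and 1051 on the deposited scale alone and to 453, 702 and 1553 on the normalized scale alone. With the median over fragments 365 genes were equally occupied, of which 202 were among the 641. Counts were 195, 221 and 336 among the 8016 genes with at least 10 fragments, 212, 230 and 263 among the 7633 genes that overlap no other gene, and 177, 208 and 5 with stricter limits on the difference (1.5, or 0.25 for equal genes). With a floor of 0.5, 1287 genes were equally occupied. SD scaling, unweighted means, fragments wholly inside the gene and a minimum of 1 fragment left all 3 counts within 1.5 times. Members changed more than counts did. Of the 453, 417 and 641 genes, unweighted means kept 346, 332 and 417 in their class. Fragments wholly inside the gene, with 12443 genes left, kept 288, 308 and 369. The median over fragments kept 323 of the ISC/EB-biased and 319 of the EC-biased genes. None of the 40 genes named at the ends changed direction under the 9 settings run for them, although the minimum of 10 fragments and the overlap filter kept only 18 and 22 of them. Of 53 list medians, 33 were at least 0.25 in size. On the normalized scale, those of the respiratory chain (-0.08), citrate cycle and glycolysis (-0.07), the proteasome (0.00), translation factors (-0.01) and snoRNA genes (-0.09) were no longer above 0, and with SD scaling that of citrate cycle and glycolysis was -0.01. Read depth was not determined, so no counting error can be given.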
